A study of Homo sapiens with 4 samples.

Results

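The 61 genes described here encode proteins of the spliceosome, SR proteins and hnRNPs. They are the protein-coding genes of the deposited table whose symbol begins with SRSF, HNRNP, SNRP, SNRNP, SF3A, SF3B or PRPF, or with LSM and a digit, and they made up 61 of the 6828 genes listed. The families held 8 SRSF, 18 HNRNP, 11 SNRP, 4 SNRNP, 3 SF3A, 4 SF3B, 8 PRPF and 5 LSM genes. RNA-seq was performed on A549 cells, an epithelial line from a human lung adenocarcinoma, 72 h after infection with a lentivirus carrying a control shRNA (shctrl) or an shRNA against the long noncoding RNA USP2-AS1 (shUSP2-AS1). Each group had 2 libraries, which the methods call biological replicates, and both groups carried a lentivirus. The shRNA sequence behind the knockdown group is not named in the labels. No other group with an shRNA against USP2-AS1 was among the samples, so an effect of the shRNA apart from USP2-AS1 was not tested.

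The table lists genes that passed an adjusted p of 0.05 in the comparison deposited with it, so each listed gene had already been selected as changed. Of 93 protein-coding genes in GENCODE release 44 whose symbols fit the same rule, 32 were not analysed here, among them HNRNPL, HNRNPR, HNRNPH2, PRPF8, PRPF31, SRSF5, SRSF11, SF3B5 and SF3B6. A count of members that passed the test is therefore no measure of how many genes of these families changed, whereas the direction of the listed members was free to differ. Values are normalized read counts, which are reads divided by the size factor of the library. In bulk RNA, fewer cells of a type and less RNA per cell cannot be told apart. A lower value means fewer reads relative to the size factor of the library, and not an absolute amount of RNA.

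Introns are removed from pre-mRNA by the spliceosome, which is built from the U1, U2, U4, U5 and U6 small nuclear ribonucleoproteins (snRNPs). U1 recognizes the 5' splice site and U2 the branch point, after which the U4/U6.U5 tri-snRNP joins and the complex is activated. The Sm proteins form a ring on U1, U2, U4 and U5 RNAs and the LSM2 to LSM8 proteins form one on U6, while SR proteins and hnRNPs bind exons and introns and favor or repress the use of splice sites.

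USP2-AS1 itself, the target of the knockdown, had normalized read counts of 23.2 and 24.2 in shctrl and 2.10 and 6.16 in shUSP2-AS1, from 24 and 22 reads in shctrl and 2 and 7 reads in shUSP2-AS1. The groups did not overlap, and the log2 fold change was -2.39 ± 0.56 (SE; adjusted p = 0.000597). The listed genes held 10772788 to 14120472 reads per library, and a member had between 242 and 19658 reads in a library. Of the epithelial markers checked, KRT8, KRT18, KRT7 and KRT19 were abundant in all 4 libraries but changed as well, with log2 fold changes of -0.77, -1.05, -0.49 and 0.75. EPCAM and CDH1, like the markers of other cell types PTPRC, CD3E, PECAM1 and COL1A2, were not among the listed genes and gave no check.

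Transcript levels of all 61 members were lower after knockdown of USP2-AS1. In limma's test with Benjamini-Hochberg adjustment over the 6812 genes whose mean value reached 10, 61 members fell and 0 rose, with no member above an adjusted p of 0.000843. Among all genes tested, 49.4% were lower and 50.6% were higher. Among the 4607 genes at least as abundant as the lowest member, 52.8% were lower. In all 61 members both shUSP2-AS1 libraries were below both shctrl libraries, against 49.3% of all genes tested. In either direction, 6811 of the 6812 genes tested had groups that did not overlap, so that a lack of overlap says little beyond the direction. The median log2 fold change of the members was -0.69, or 61.4% of the shctrl mean. Their log2 fold changes ranged from -1.58 for LSM3 to -0.31 for HNRNPK. The median over all genes tested was 0.19, but it depended on abundance. When only the 6092 genes whose mean reached 100 were kept, it was -0.23. That value is the nearer comparison, because the lowest mean of any member was 385.

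Summed over the members, the normalized read count came to 220261 and 217675 for shctrl and to 130678 and 134053 for shUSP2-AS1. The members took 1.85% and 1.84% of the reads on listed genes in shctrl and 1.06% and 1.08% in shUSP2-AS1. The replicates of each group lay closer together than the groups did. The plot of the members by library shows this gene by gene, and the plot of log2 fold changes sets the members beside all genes tested.

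**Figure D1:**
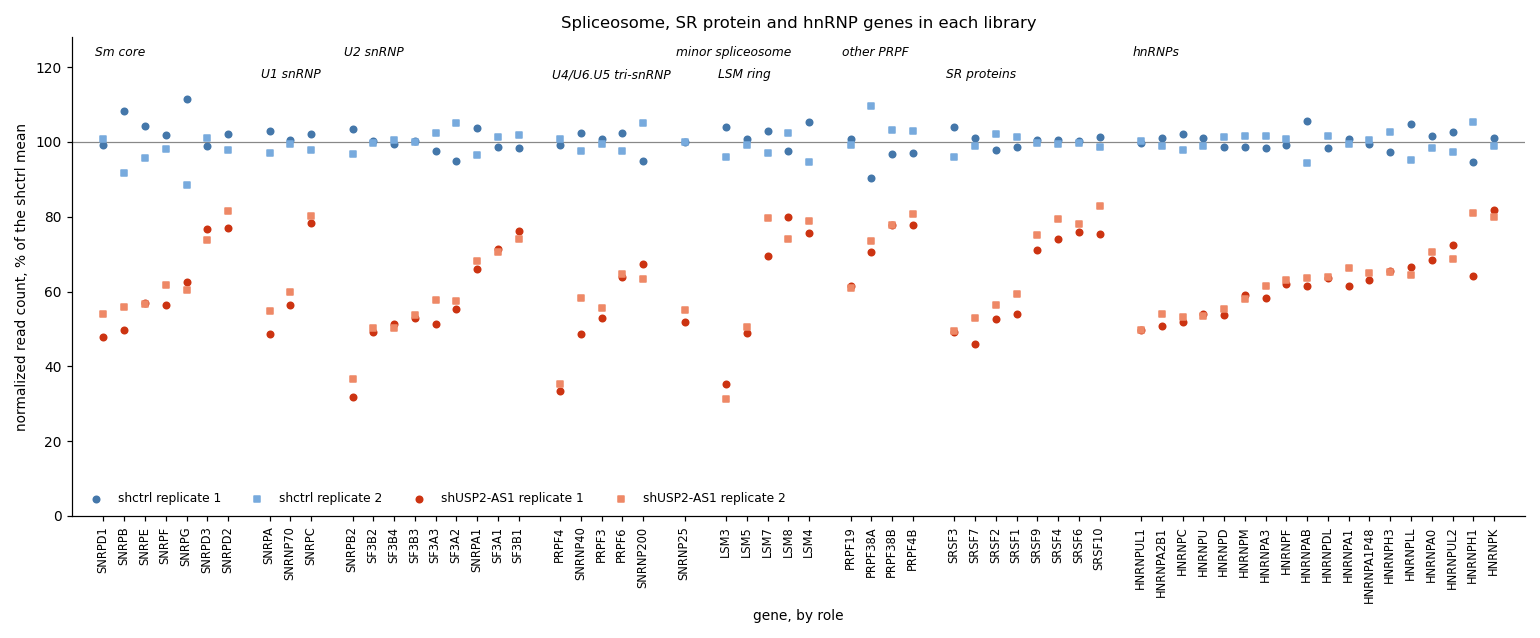
Normalized read count of 60 of the 61 members in each of the 4 libraries, as a percentage of the mean of the 2 shctrl libraries (vertical axis), with genes ordered by role and then by change (horizontal axis). Blue points are shctrl and red points shUSP2-AS1 libraries, and in every gene shown both red points lie below both blue points.

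**Figure D2:**
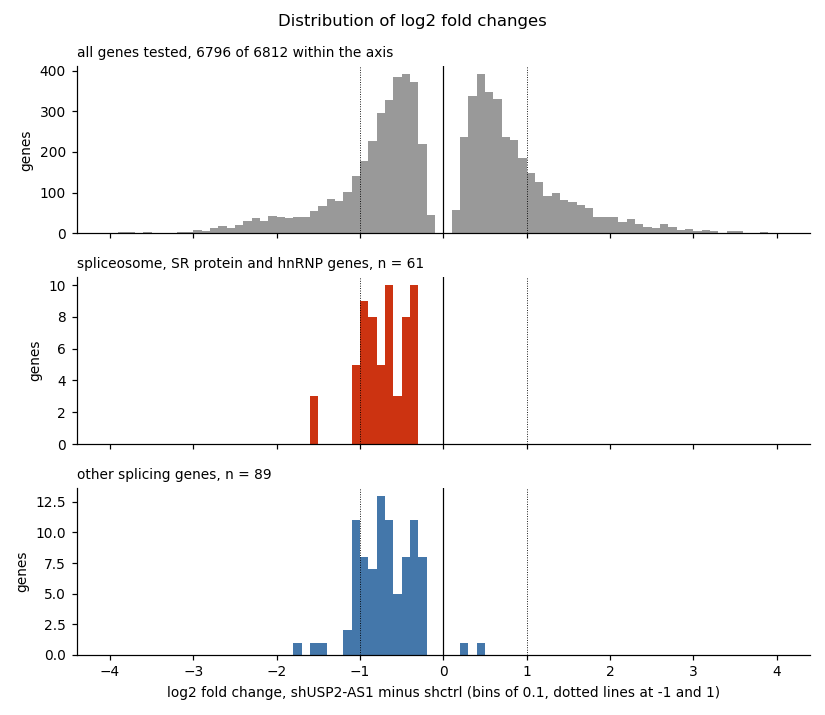
Number of genes (vertical axes) by log2 fold change of shUSP2-AS1 minus shctrl (horizontal axis) for all genes tested, for the 61 members and for 89 other splicing genes. The gap around 0 in the top panel reflects that the table lists genes past an adjusted p of 0.05, and the members lie between -1.58 and -0.31.

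By family, the median log2 fold change was -0.94 for SF3B, -0.84 for SNRNP, -0.82 for SF3A, -0.76 for SNRP, -0.66 for HNRNP, -0.64 for SRSF, -0.56 for PRPF and -0.43 for LSM. The ranges of the families overlapped, and no test between families was made. A fall of at least 2-fold was seen in 8 of the 61 members, a share close to the 13.5% of all genes tested, and a rise of at least 2-fold in 0 members, against 16.1% of all genes tested. The 8 genes were LSM3, SNRPB2, PRPF4, SRSF3, SRSF7, HNRNPUL1, LSM5 and SF3B2. This count depended on the scaling and on single libraries. The alternative scaling factors were computed from the listed genes alone, all selected as changed. RLE scaling (median of ratios) shifted the median of all genes by -0.12. The count past 2-fold was 18 with RLE scaling and 3 with upper quartile scaling. It was 5 without shUSP2-AS1 replicate 1 and 12 without shUSP2-AS1 replicate 2. LSM3, SNRPB2 and PRPF4 were past 2-fold under each of these settings. The members just inside the threshold were SF3B2 at -1.01 and LSM5 at -1.01, and those just outside were SF3B4 and SNRPD1, both at -0.98.

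LSM3, a subunit of the LSM ring that binds the 3' end of U6 RNA, fell most on the log2 scale. Its normalized read counts were 749 and 690.1 in shctrl and 254 and 225 in shUSP2-AS1, and the log2 fold change was -1.58 ± 0.099 (SE; adjusted p = 1.07e-10). The shUSP2-AS1 mean was 33.3% of the shctrl mean. SNRPB2, the U2 B'' protein that binds a stem-loop of U2 RNA, had values of 1142 and 1068 in shctrl and 350.2 and 403 in shUSP2-AS1, with a log2 fold change of -1.55 ± 0.086 (SE; adjusted p = 2.20e-11). PRPF4, a U4/U6 protein, had values of 1668 and 1692 in shctrl and 559 and 593 in shUSP2-AS1, with a log2 fold change of -1.54 ± 0.068 (SE; adjusted p = 1.04e-12). In each of these 3 genes the groups stood far apart and the replicates close together, and the next member in the order, SRSF3, stood at -1.02.

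The bases upstream of the 4 members with the lowest log2 fold changes are shown as a description. Whether any promoter feature bears on the fall was not tested. LSM3, SNRPB2, PRPF4 and SRSF3 each have 1 start site in RefSeq (GRCh38.p14) within 100 bases of the gene start in the table. The 200 bases before that start are given 5' to 3' on the plus strand, from chr3:14178617-14178816 for LSM3, chr20:16729826-16730025 for SNRPB2, chr9:113275458-113275657 for PRPF4 and chr6:36594162-36594361 for SRSF3. Capitals mark matches, on either strand, to the E-box letters CACGTG, the ETS core CCGGAAG, the CCAAT box, the GC box GGGGCGGGG or the TATA box letters TATAAA.
LSM3: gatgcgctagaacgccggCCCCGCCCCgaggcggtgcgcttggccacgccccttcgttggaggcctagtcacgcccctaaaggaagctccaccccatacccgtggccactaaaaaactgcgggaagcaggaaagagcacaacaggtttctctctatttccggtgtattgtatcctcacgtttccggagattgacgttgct
SNRPB2: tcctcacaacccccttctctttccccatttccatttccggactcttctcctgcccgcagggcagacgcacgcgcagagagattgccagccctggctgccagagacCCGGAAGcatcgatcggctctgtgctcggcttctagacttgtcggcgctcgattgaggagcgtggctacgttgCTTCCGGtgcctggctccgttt
PRPF4: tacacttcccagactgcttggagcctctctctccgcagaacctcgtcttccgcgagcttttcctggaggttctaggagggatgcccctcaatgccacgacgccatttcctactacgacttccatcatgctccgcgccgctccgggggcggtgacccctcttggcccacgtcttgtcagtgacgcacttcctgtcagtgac
SRSF3: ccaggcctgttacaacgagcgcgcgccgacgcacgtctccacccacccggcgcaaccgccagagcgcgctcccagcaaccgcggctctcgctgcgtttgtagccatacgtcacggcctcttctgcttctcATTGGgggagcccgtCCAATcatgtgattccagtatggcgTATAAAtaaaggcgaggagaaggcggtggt
LSM3 has a match to GGGGCGGGG 182 to 174 bases before the start. In the longer window searched below, LSM3 also has E2F-type letters and TCTCGCGA, which were not among the letters marked. SNRPB2 has matches to the ETS core at 95 to 89 and at 22 to 16 bases before the start. SRSF3 has CCAAT at 70 to 66 and at 55 to 51 bases and TATAAA at 30 to 25 bases before its start, and PRPF4 has none of these letters in its 200 bases.

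Over a window of 250 bases before to 50 after the start, 9 motifs were searched on both strands in the 53 members with a RefSeq window. The members without one include HNRNPA1, HNRNPA1P48, PRPF3, PRPF4B, SF3B3, SNRPD1 and SRSF2. CCGGAAG was found in 20 of the 53 members (37.7%), in 20.5% of the other genes tested and in 12.2% of all 27305 symbols with a window. The E2F-type letters TTTCCCGC, TTTGGCGC, TTTCGCGC and TTTGCCGC were found in 15.1% of members and 6.53% of other genes tested, from 3.99% of all symbols. The members with E2F-type letters were HNRNPA3, HNRNPK, HNRNPLL, HNRNPUL1, LSM3, SF3B1, SNRPB and SRSF10. The E-box CACGTG was in 13.2%, 12.9% and 8.77%, and CCAAT in 50.9%, 43.8% and 39.7%, of these groups in the same order. GGGGCGGGG was in 22.6%, 35% and 18.5%, TATAAA in 11.3%, 8.47% and 14%, GCGCATGC in 9.43%, 5.72% and 3.68%, AAGATGGCG in 7.55%, 4.57% and 2.14%, and TCTCGCGA in 7.55%, 3.04% and 1.37%. The median log2 fold change was -0.69 in the 20 members with CCGGAAG and -0.71 in those without it. In the 6 members with TATAAA it was -0.90, against -0.68 without it. It was -0.47 in the 5 members with GCGCATGC and -0.70 without it, -0.46 in the 4 with AAGATGGCG and -0.71 without it, and -0.48 in the 4 with TCTCGCGA and -0.71 without it. For CACGTG it was -0.74 with and -0.69 without, for the E2F-type letters -0.68 and -0.69, for CCAAT -0.68 and -0.78, and for GGGGCGGGG -0.66 and -0.71. These medians rest on few genes and were not tested. These letter matches are a description, and the motifs shown were chosen after their shares were known.

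The Sm core had 7 listed members, all lower, with a median log2 fold change of -0.76. SNRPD1 was lowest at -0.98 ± 0.079 (SE; adjusted p = 3.41e-09), with normalized read counts of 1039 and 1055 in shctrl and 499.5 and 566 in shUSP2-AS1. SNRPB, which encodes the B and B' proteins, had the highest level per kilobase of gene length of all members, 4394 in shctrl and 2322 in shUSP2-AS1, and normalized read counts of 6078 and 5153 in shctrl and 2794 and 3140.5 in shUSP2-AS1. Its shctrl replicates were less alike than those of most members, yet both were above both shUSP2-AS1 values. SNRPE, SNRPF and SNRPG lay between -0.82 and -0.69. SNRPD3 and SNRPD2 fell least in the ring, with normalized read counts of 577 and 589 in shctrl and 447 and 429.6 in shUSP2-AS1 for SNRPD3 and 3658 and 3509 in shctrl and 2756 and 2925 in shUSP2-AS1 for SNRPD2, or 75.2% and 79.3% of the shctrl mean. Proteins that sit side by side in 1 ring thus had transcripts at 50.9% to 79.3% of control.

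Of the U1 proteins, SNRPA, which binds a U1 stem-loop, fell most, with normalized read counts of 1609.8 and 1515 in shctrl and 759 and 858 in shUSP2-AS1 and a log2 fold change of -0.95 ± 0.072 (SE; adjusted p = 1.33e-09). SNRNP70, the U1-70K protein, had values of 7345 and 7254 in shctrl and 4109 and 4369.5 in shUSP2-AS1 and a log2 fold change of -0.78 ± 0.050 (SE; adjusted p = 1.47e-10). SNRPC, which stabilizes the pairing of U1 with the 5' splice site, had values of 1168 and 1121 in shctrl and 897 and 917 in shUSP2-AS1 and a log2 fold change of -0.33 ± 0.067 (SE; adjusted p = 0.000136).

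The U2 snRNP had 9 listed members with a median log2 fold change of -0.87. SNRPB2 and SNRPA1, partners that bind the same U2 stem-loop as B'' and A', had log2 fold changes of -1.55 and -0.57. SNRPA1 had normalized read counts of 1037 and 965 in shctrl and 661 and 683 in shUSP2-AS1, or 67.2% of the shctrl mean, where SNRPB2 was at 34.1%. The partners started from like levels, with shctrl means of 1105 and 1001.

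The SF3A and SF3B proteins hold U2 at the branch point. SF3A3 and SF3A2 were at -0.87 and -0.82, with normalized read counts of 1329 and 1393 in shctrl and 699 and 787 in shUSP2-AS1 for SF3A3 and 885 and 978 in shctrl and 514 and 536 in shUSP2-AS1 for SF3A2. SF3A1 was at -0.49, with 2249 and 2311 in shctrl and 1627 and 1611 in shUSP2-AS1. SF3A1 thus fell less than the other subunits by more than the standard errors of 0.073, 0.079 and 0.056 for SF3A3, SF3A2 and SF3A1, a difference that was not tested.

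SF3B2 had values of 4701 and 4667 in shctrl and 2307 and 2352 in shUSP2-AS1 and fell by 1.01 on the log2 scale. SF3B4 had 2418 and 2439.7 in shctrl and 1247 and 1220.3 in shUSP2-AS1, and SF3B3 had 5189 and 5176 in shctrl and 2737 and 2782 in shUSP2-AS1. These subunits were at 49.7%, 50.8% and 53.3% of the shctrl mean. SF3B1, the subunit that clamps the branch point helix, had values of 5302 and 5488 in shctrl and 4111 and 3991 in shUSP2-AS1 and a log2 fold change of -0.41 ± 0.050 (SE; adjusted p = 5.17e-07). It thus stood at 75.1% of the shctrl mean, the highest of the U2 members listed.

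In the U4/U6.U5 tri-snRNP, PRPF4 and PRPF3 encode proteins that bind each other on U4/U6. PRPF3 had normalized read counts of 1242 and 1225 in shctrl and 654 and 687 in shUSP2-AS1 and a log2 fold change of -0.88 ± 0.069 (SE; adjusted p = 2.24e-09), beside -1.54 for PRPF4. SNRNP40, a U5 protein, had values of 644 and 612 in shctrl and 306 and 365 in shUSP2-AS1, and PRPF6, which bridges U5 and U4/U6, had 2509 and 2390.2 in shctrl and 1566 and 1586 in shUSP2-AS1. Their log2 fold changes were -0.91 and -0.64. SNRNP200, the helicase that unwinds U4 from U6, had values of 10391 and 11489.7 in shctrl and 7371 and 6918 in shUSP2-AS1 and a log2 fold change of -0.61 ± 0.055 (SE; adjusted p = 1.30e-08). The 5 members had a median of -0.88. SNRNP25, a protein of the U11/U12 particle of the minor spliceosome, had values of 969 and 968 in shctrl and 502 and 533 in shUSP2-AS1 and a log2 fold change of -0.90 ± 0.076 (SE; adjusted p = 5.09e-09), and was the listed member for that spliceosome.

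Among the roles, the LSM ring had the widest range of log2 fold changes, from -1.58 to -0.37, close to that of the U2 snRNP, from -1.55 to -0.41. LSM3 and LSM5 were lower by at least 2-fold, and LSM5 had normalized read counts of 653 and 644 in shctrl and 317 and 328 in shUSP2-AS1 with a log2 fold change of -1.01 ± 0.089 (SE; adjusted p = 9.61e-09). LSM7, LSM8 and LSM4 were at -0.43, -0.38 and -0.37. Their values were 770.1 and 728 in shctrl and 521 and 596 in shUSP2-AS1 for LSM7, 489 and 512 in shctrl and 401 and 371 in shUSP2-AS1 for LSM8 and 2516 and 2265 in shctrl and 1808 and 1882 in shUSP2-AS1 for LSM4. LSM8, the subunit that makes the ring specific for U6, had the largest adjusted p of all members, 0.000843.

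Of the remaining PRPF genes, PRPF19, a ubiquitin ligase of the complex that activates the spliceosome, had values of 3538 and 3480.4 in shctrl and 2157 and 2139 in shUSP2-AS1 and a log2 fold change of -0.71 ± 0.052 (SE; adjusted p = 9.10e-10). PRPF38A and PRPF38B, paralogs of a protein of the precatalytic complex, were at -0.46 and -0.36. Their values were 405 and 491 in shctrl and 317 and 329 in shUSP2-AS1 for PRPF38A and 755 and 803 in shctrl and 606 and 606 in shUSP2-AS1 for PRPF38B. The paralogs differed by about the standard error of either. PRPF4B, a kinase of the spliceosome that is no paralog of PRPF4, was at -0.33 ± 0.066 (SE; adjusted p = 0.000118), with values of 1236 and 1311 in shctrl and 992 and 1027 in shUSP2-AS1.

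SR proteins bind exonic enhancers and recruit U1 and U2. SRSF3 had normalized read counts of 4695 and 4326 in shctrl and 2215 and 2231 in shUSP2-AS1 and a log2 fold change of -1.02 ± 0.055 (SE; adjusted p = 1.40e-11). SRSF7, the SR protein with a zinc knuckle, had values of 2855 and 2796 in shctrl and 1298 and 1498 in shUSP2-AS1 and a log2 fold change of -1.02 ± 0.066 (SE; adjusted p = 1.67e-10). Both were close to 50% of the shctrl mean, at 49.3% and 49.5%. SRSF2 followed with values of 2356 and 2462 in shctrl and 1268 and 1357 in shUSP2-AS1, and 27.7% of its exon bases overlap genes on the opposite strand (MFSD11 among them).

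The paralogs SRSF1 and SRSF9 were at -0.82 and -0.45. SRSF1 had values of 1617 and 1657 in shctrl and 884 and 973 in shUSP2-AS1 and SRSF9 had 2408 and 2388 in shctrl and 1703 and 1804 in shUSP2-AS1, so that SRSF1 stood at 56.7% and SRSF9 at 73.1% of the shctrl mean. In SRSF9 43.6% of exon bases overlap genes on the other strand and in SRSF1 32.7% overlap a gene on the same strand, and the strand setting of the counting is not given in the sources used here. SRSF4, SRSF6 and SRSF10, the last of which acts as a repressor when dephosphorylated, fell least among SR genes. SRSF10 had values of 1906 and 1856 in shctrl and 1419 and 1558 in shUSP2-AS1 and a log2 fold change of -0.34 ± 0.062 (SE; adjusted p = 5.95e-05), SRSF4 had 1133 and 1121 in shctrl and 835 and 894 in shUSP2-AS1, and SRSF6 had 2063 and 2056 in shctrl and 1563 and 1609 in shUSP2-AS1. The 8 SR genes held 0.160% and 0.158% of the reads on listed genes in shctrl and 0.0908% and 0.0959% in shUSP2-AS1.

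The hnRNPs were the largest family and took 1.01% of the reads on listed genes in each shctrl library against 0.576% and 0.584% in the shUSP2-AS1 libraries. HNRNPUL1 fell most, with normalized read counts of 11704 and 11784 in shctrl and 5840.5 and 5823 in shUSP2-AS1 and a log2 fold change of -1.01 ± 0.047 (SE; adjusted p = 2.09e-12). Its paralog HNRNPU, a nuclear matrix protein, had values of 13334 and 13026 in shctrl and 7119 and 7036 in shUSP2-AS1 and was at -0.90. A second paralog, HNRNPUL2, was at -0.50, with values of 984 and 933 in shctrl and 695 and 658 in shUSP2-AS1, and 44.3% of its exon bases belong also to the HNRNPUL2-BSCL2 readthrough gene.

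HNRNPA2B1 and HNRNPA1 are paralogs that repress splicing and had the highest mean normalized read counts of the members in both groups. HNRNPA2B1 had values of 18995 and 18572 in shctrl and 9550.5 and 10157 in shUSP2-AS1 and a log2 fold change of -0.93 ± 0.049 (SE; adjusted p = 1.31e-11). HNRNPA1 had 14587 and 14389 in shctrl and 8902 and 9596 in shUSP2-AS1 and a log2 fold change of -0.65 ± 0.050 (SE; adjusted p = 1.86e-09). The level of HNRNPA2B1 as read counts was above that of HNRNPA1 within each of the 4 libraries. Per kilobase of deposited gene length HNRNPA1 was the higher in both groups, at 2845 and 1816 against 2027 and 1063. HNRNPA1P48, which GENCODE names HNRNPA1L3, is a retrocopy of HNRNPA1 with values of 496 and 500.0 in shctrl and 313 and 324 in shUSP2-AS1, and reads of HNRNPA1 and of its copies may be split between them. Without HNRNPA1P48, 60 of 60 members were lower. Reads of other members may be split with copies as well. GENCODE names 74 pseudogenes of HNRNPA1 and, for example, 20 of SNRPG, 18 of SNRPC, 16 of HNRNPA3 and 10 of SNRPE.

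HNRNPC, which binds uridine tracts, had values of 9194 and 8801 in shctrl and 4659 and 4791 in shUSP2-AS1 and was at -0.93. HNRNPD, HNRNPM, HNRNPA3, HNRNPF, HNRNPAB, HNRNPDL, HNRNPH3, HNRNPLL and HNRNPA0 lay between -0.88 and -0.53. In HNRNPA3 53.6% of exon bases overlap other genes on the opposite strand, NFE2L2 among them. HNRNPH1, which binds G tracts, had values of 499 and 555 in shctrl and 338 and 426 in shUSP2-AS1 and a log2 fold change of -0.47 ± 0.11 (SE; adjusted p = 0.000526). Its shUSP2-AS1 replicates differed by a ratio of 1.26, the largest between replicates of any member, and without shUSP2-AS1 replicate 1 its log2 fold change was -0.30 with an adjusted p of 0.0161, while it was -0.64 without shUSP2-AS1 replicate 2. HNRNPK, a poly(C)-binding protein, fell least of all members, with values of 11511 and 11254 in shctrl and 9314 and 9109 in shUSP2-AS1 and a log2 fold change of -0.31 ± 0.047 (SE; adjusted p = 1.02e-05).

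Across the 61 members Pearson's r of the log2 fold change with the log2 mean value was -0.0059 and Spearman's rho was -0.099. Against log2 gene length, r was 0.12 and rho 0.11. These are descriptions over genes that share the same 4 libraries. The members lie on 19 chromosomes. The plot of level against change shows that LSM3, SNRPB2 and PRPF4 are not the most weakly expressed members per kilobase in shctrl. LSM3 nevertheless had the fewest reads of any member in a library, 242 in shUSP2-AS1 replicate 1.

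**Figure D3:**
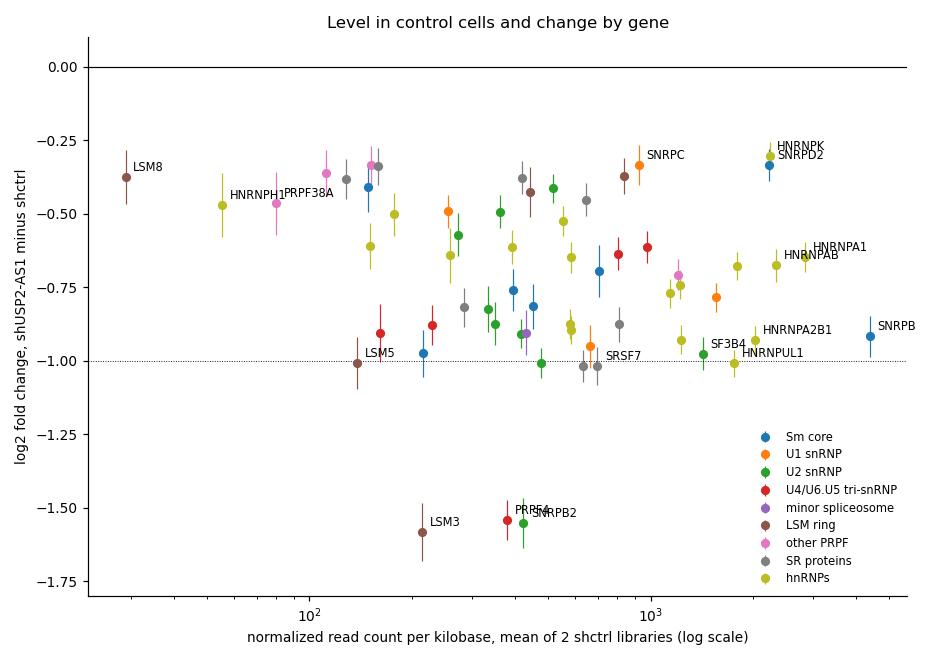
Log2 fold change of shUSP2-AS1 minus shctrl with its standard error (vertical axis) against the mean normalized read count per kilobase in the 2 shctrl libraries (horizontal axis, log scale) for the 61 members, colored by role. LSM3, SNRPB2 and PRPF4 lie below -1.5, at 214, 424 and 380 per kilobase in shctrl, and the other members lie between -1.02 and -0.31.

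Other splicing genes outside the named families were taken from a list of 142, of which 89 were tested. Of these, 87 fell and 2 rose, and 16 fell by at least 2-fold, against the shares of all genes tested given above for lower (49.4%) and for 2-fold lower (13.5%). Their median log2 fold change was -0.69, as in the members. The tri-snRNP proteins had the lowest median by role, -1.06 over 9 genes, and SR kinases and SR-related proteins the highest, -0.48 over 14. DDX23, the helicase of U5 that acts when U1 leaves the 5' splice site, had normalized read counts of 3575 and 3595 in shctrl and 985 and 1129.6 in shUSP2-AS1 and a log2 fold change of -1.76 ± 0.065 (SE; adjusted p = 1.14e-13). HTATSF1, a U2-associated protein, had 1777 and 1714 in shctrl and 567 and 659 in shUSP2-AS1 and MAGOHB, of the exon junction complex, had 314 and 286 in shctrl and 108 and 116 in shUSP2-AS1. Their log2 fold changes were -1.51 and -1.41. The exceptions were PTBP3 and QKI, regulators of alternative exons, with log2 fold changes of 0.24 ± 0.051 (SE; adjusted p = 0.000243) for PTBP3 and 0.49 ± 0.063 (SE; adjusted p = 1.26e-06) for QKI. PTBP3 had values of 3671 and 3872 in shctrl and 4531 and 4389 in shUSP2-AS1, and QKI had 1472 and 1655 in shctrl and 2217 and 2164 in shUSP2-AS1.

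**Figure D4:**
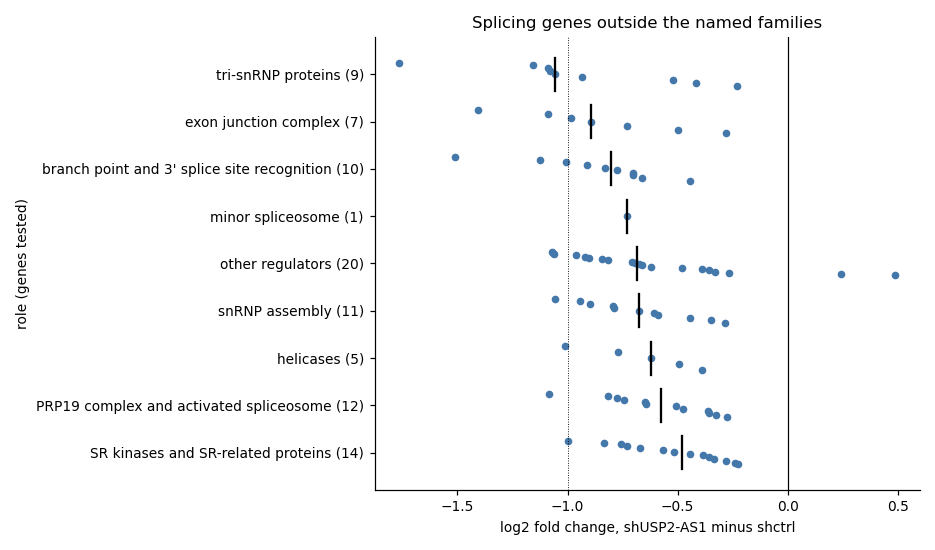
Log2 fold change of shUSP2-AS1 minus shctrl (horizontal axis) of 89 splicing genes outside the named families, each point a gene, grouped by role (vertical axis) with the median as a bar. All lie below 0 except PTBP3 and QKI.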

How the data were processed

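RNA-seq had been performed on poly(A) RNA of 4 A549 cell libraries. Per the labels' processing notes, HISAT2 2.0.5, featureCounts 1.5.0-p3, DESeq2 1.20.0 and hg38 were used. The values the authors deposited are signals, each a read count divided by its library's DESeq2 size factor. The log2 fold changes and p-values of their own DESeq2 comparison, also deposited by the authors, were not used, except that every listed gene was checked to have an adjusted p below 0.05. Columns named scr and sh216 were read as shctrl and shUSP2-AS1.

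The members and all gene lists and roles were chosen with earlier results of these data known. Each value was a whole number of reads (100% within 0.01 reads of a whole number) when divided by the value of 1 read, 0.966, 1.10, 1.05 and 0.880 in the 4 libraries. The main test was limma 3.58.1 (R 4.3.3) with an eBayes trend on log2(value + 1), on all genes whose mean value reached 10, with Benjamini-Hochberg adjustment. Fold changes on this scale understate changes of low genes. The variance trend, the adjustment and the alternative scaling factors were computed on the listed genes alone, all selected as changed. The standard errors and adjusted p-values may therefore be too small. Tests were also run on simulated counts in which most genes were unchanged, unlike the listed genes, so that run does not check the p-values given here. edgeR 4.0.16 and DESeq2 1.42.0 were run on the recovered reads, with other scalings, pseudocounts, filters, a replicate block and each library left out as alternatives. Genes given in every library were, per family, those past 2-fold, the 3 lowest and 3 highest log2 fold changes, the most abundant per kilobase and paralogs. The members PRPF6 and HNRNPA1P48 were given as well. A member, included in the counts, is not reported here by name. Lengths are the deposited gene lengths. Promoters are from RefSeq and overlaps from GENCODE release 44.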

Additional observations from a re-analysis of the deposited data

How the results depend on the processing

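All 61 members were lower under every alternative run: TMM, RLE and upper quartile scaling, edgeR, DESeq2, a pseudocount of 0.1, no filter, a mean value of at least 100, the block and each library left out. Over the 11 of these computed for each member, the filters aside, no member changed direction. With all 4 libraries kept, each member also had an adjusted p below 0.05 under every alternative. Every listed gene had already passed that threshold in the same 4 libraries. Passing again was therefore nearly fixed in advance and says little beyond the direction. The count of members lower by at least 2-fold was 8, and became 18 with RLE scaling and 3 with upper quartile scaling. It ranged from 5 to 12 when 1 library was left out. The lone library left in a group was then assumed to vary like the other group, and the genes past 2-fold in every setting were LSM3, SNRPB2 and PRPF4. Of the other splicing genes, 86 or 87 were lower and 2 higher under every alternative. With the replicate block the count was 8, with 61 lower and 0 higher, and it changed no call of a member. The labels give replicate numbers but do not say whether same-numbered samples were paired. The correlation across genes of same-numbered deviations was -0.040, which with 2 pairs cannot decide this. Depth limits USP2-AS1, with 2 to 24 reads, more than any member.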
